A study of Mus musculus with 2 samples.

Results

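Keratinocytes selected for Lgr5, Slc38a4 or Abi3bp, genes used to mark the hair germ, and for few or no transcripts of the bulge genes Krt24 and Cd34 were examined in 2 single-cell libraries of mouse back skin, and 313 of 3936 kept control cells and 249 of 3628 kept miR-205 induced cells met the selection, 562 of 7564 in all. The cells were selected on their own counts of unique molecular identifiers (UMIs, 1 per captured transcript). A selected cell had at least 20 UMIs of Krt5 and Krt14 together, the keratins of basal keratinocytes, and at least 3 UMIs of Lgr5, Slc38a4 and Abi3bp together. It had fewer than 3 UMIs of Cd34 and Krt24 (bulge), of Krt75, Sncg and Fgf18 (inner bulge) and of Pthlh, Aspn, Postn and Sema3e (upper bulge), and fewer than 20 of the fibroblast collagens Col1a1 and Col1a2. Of the selected cells 13 control and 15 induced cells still held a Cd34 UMI, and 3 and 1 a Krt24 UMI. These sums chose the cells, so the levels of the genes in them are given below as description.

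The hair germ is a small cluster of progenitors between the bulge and the dermal papilla of the resting follicle, and it is known to respond first when a new hair cycle begins. The bulge above it holds the slow-cycling hair follicle stem cells, and Lgr5, a receptor that strengthens Wnt signalling, marks the hair germ and the lower bulge. miR-205 is an abundant microRNA of skin epithelium, and microRNAs lower the stability and translation of messages that pair with their seed. The study raised it in mice, so its mature sequences, taken from RefSeq on GRCm38.p6, are shown with the seed (bases 2 to 8) in capitals. The 5p strand lies at chr1:193507503-193507524 and the 3p strand at chr1:193507467-193507488, both on the minus strand.
mmu-miR-205-5p: uCCUUCAUuccaccggagucug
mmu-miR-205-3p: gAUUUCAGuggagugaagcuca

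The study set 1 control mouse beside 1 miR-205 inducible mouse, with 1 10x Genomics library each, at postnatal day 53. Both carried the K14-H2BGFP reporter, and the inducible mouse carried a pTRE2-miR-205 transgene switched on by a Krt14-driven rtTA, which acts in cells with an active Krt14 promoter. Doxycycline chow ran for 4 days from postnatal day 49. The extraction protocol gives it to both mice, while the sample characteristics call the control untreated. The labels give the strain as C57BL/6 and the mice as gender matched, whereas the study's methods describe transgene injection into FVB embryos. Sorting on surface proteins and H2BGFP set epidermal, follicle and dermal cells at a ratio of 3 to 5 to 2, so shares of cells describe this mixture and not the skin. With 1 mouse per group there was no replicate and no test of the treatment, and mouse, library and treatment cannot be told apart. All intervals are 95% intervals that cover counting error only, and where values come in pairs the control stands first.

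The libraries held 55465594 and 49733560 UMIs over 4545 and 4264 barcodes, and 11 barcode sequences occurred in both, none of them a selected cell. Selected cells had a median of 12599 UMIs in the control and 13349 in the induced library. Of all kept cells they were 7.95% in the control (7.13 to 8.84) and 6.86% in the induced library (6.06 to 7.74), so the induced share was -1.09 points away from the control share, with an interval from -2.29 to 0.112. The limit of 3 on Lgr5, Slc38a4 and Abi3bp passed through a crowded range, since 88 control and 51 induced cells had exactly 3 UMIs and 142 and 95 otherwise eligible cells had 2. Fewer cells lay near the other limits. Pthlh, Aspn, Postn and Sema3e summed to 2 UMIs in 13 control and 12 induced members and to 3 in 9 and 11 cells that failed on that sum alone. At 2 UMIs of Cd34 and Krt24 there were 3 control and 3 induced members, and at 3 there were 2 and 1 such cells. The Krt5 and Krt14, inner bulge and collagen limits each had at most 3 cells of a library on either edge.

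The genes behind the selection did not mark a single population. Many, though not all, of the cells without Lgr5 and Slc38a4 were rich in upper follicle transcripts, which went against a hair germ label for those cells. Abi3bp, which encodes a secreted matrix protein (chr16:56477801-56690135, RefSeq positions on GRCm38.p6 throughout), was detected in 94.9% of selected control and 98% of selected induced cells. Lgr5 (chr10:115450314-115587780) was detected in 31.9% and 45%, and Slc38a4, an amino acid transporter (chr15:96994816-97055956), in 31.9% and 36.5%. In dermal cells, which should lack both, a UMI of Lgr5 was found in 4 of 108 control and 8 of 139 induced cells (3.7% and 5.76%, at median depths of 12174 and 11443 UMIs), and one of Slc38a4 in none, whereas Abi3bp was found in 80.6% and 78.4%. Both Lgr5 and Slc38a4 were detected in 69 of 313 control and 68 of 249 induced members. A further 182 control and 114 induced members carried Abi3bp alone of the 3 genes. Members are therefore described as Lgr5/Slc38a4-positive cells (at least 1 UMI of either gene) and Abi3bp-only cells, a division made after the data had been seen.

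The division separated cells by transcripts that the selection had not used. Krt79, a keratin of the follicle opening, Defb6, a defensin, and Cst6, a protease inhibitor of cornifying epithelium, together reached 20 UMIs in 93 of 182 control and 58 of 114 induced Abi3bp-only cells, which is 51.1% (43.6 to 58.6) and 50.9% (41.3 to 60.4). They reached it in 3 of 131 positive control cells and in 0 of 135 positive induced cells, where a count of 0 allows a share of up to 2.22%. In dermal cells, taken as a measure of the free RNA shared by droplets, no cell of 108 and 139 reached it. The limit of 20 was set after these values were seen. Among cells with a single Lgr5 or Slc38a4 UMI the count was 2 of 24 in the control and 0 of 25 in the induced library, so 1 UMI already went with low Krt79, Defb6 and Cst6. Depth was alike, with median UMIs of 12614 and 12608 in positive cells and 12524 and 13874 in Abi3bp-only cells. Positive cells were 41.9% of selected control cells (36.3 to 47.5) and 54.2% of selected induced cells (47.8 to 60.5), a difference of 12.4 points (3.8 to 20.7). Among cells with under 5% mitochondrial UMIs positive cells were 24.8% and 33.7% of the selection. As shares of kept cells they were 3.33% and 3.72%, with an interval of the difference from -0.457 to 1.25 points, while Abi3bp-only cells were 4.62% and 3.14%, a difference of -1.48 points (-2.37 to -0.594).

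**Figure D1:**
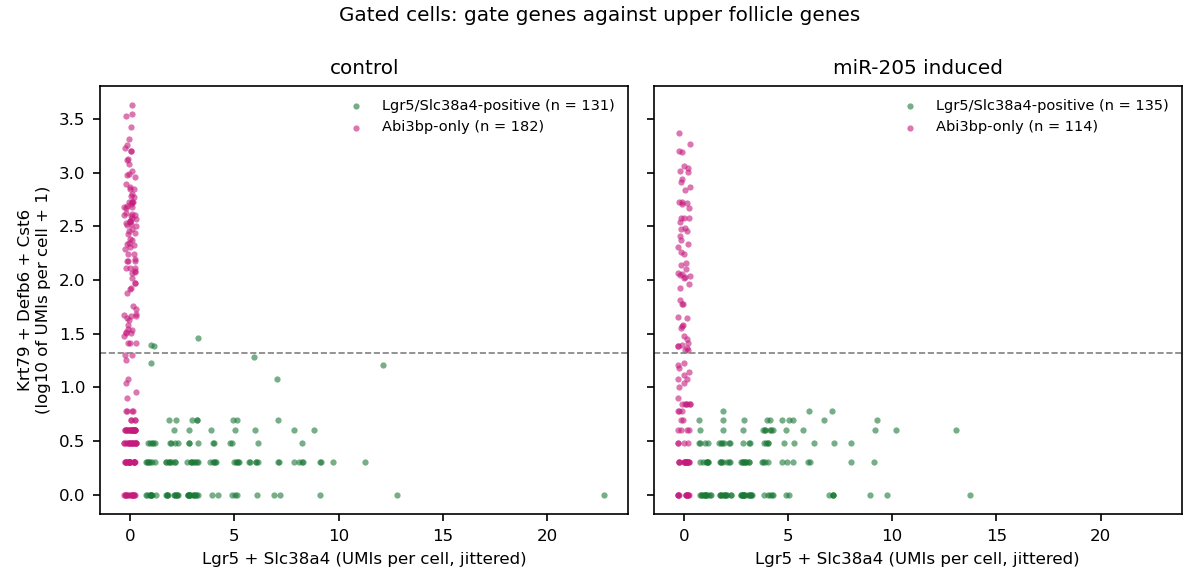
Each point is 1 selected cell, with the control library on the left and the induced library on the right. The x axis gives Lgr5 plus Slc38a4 UMIs per cell (jittered) and the y axis log10 of Krt79, Defb6 and Cst6 UMIs plus 1; the dashed line is 20 UMIs, reached by 93 and 58 Abi3bp-only cells and by 3 and 0 positive cells.

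Levels are given as CPM, the UMIs of a gene summed over the cells of a group and scaled to a group total of 1000000 UMIs. In Lgr5/Slc38a4-positive cells Lgr5 was at 174 (156 to 195) CPM in the control and 154 (137 to 173) CPM in the induced library. Cells of the bulge gate (at least 3 UMIs of Cd34 and Krt24, the other limits kept but none on Lgr5, Slc38a4 and Abi3bp; 57 control and 97 induced cells) had Lgr5 at 131 and 87.8 CPM, so Lgr5 was not particular to cells without Krt24. Slc38a4 stood at 115 and 106 CPM in positive cells and 9.0 and 9.41 CPM in the bulge gate, a wider gap than that of Lgr5. Abi3bp was at 428 and 682 CPM in positive cells, 332 and 402 CPM in Abi3bp-only cells and 12.6 and 16.7 CPM in the bulge gate. Dermal cells had Abi3bp at 370.2 and 329 CPM, in the range of the selected cells, where Lgr5 was 2.99 and 8.03 CPM. The bulge transcripts Krt24 and Cd34, limited by the selection, were at 0.563 and 0.538 CPM and 6.75 and 9.15 CPM in positive cells, against 198 and 650.4 CPM and 513 and 705 CPM in the bulge gate.

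Hair germ markers that the selection did not use were higher in positive than in Abi3bp-only cells. Most of those with enough UMIs were not past 2-fold over the bulge gate, as given below. Lbh, a transcriptional cofactor (chr17:72918305-72941946), was at 162 and 92.6 CPM in positive cells, 41.7 and 31.7 CPM in Abi3bp-only cells and 73.8 and 24.1 CPM in the bulge gate. Procr, the endothelial protein C receptor (chr2:155751125-155755478), was at 53.5 and 83.4 CPM in positive and 2.41 and 13.3 CPM in Abi3bp-only cells, but 48.4% and 71.6% of its UMIs in positive cells came from 5 cells per library. Cdh3, which encodes P-cadherin and is a classical hair germ marker, differed less, at 49.5 and 74.3 CPM in positive cells and 34.5 and 34 CPM in Abi3bp-only cells. Lef1, which carries Wnt signals in the nucleus, and Gli1, a target and effector of Hedgehog signalling, were low, at 39.4 and 32.3 CPM and 46.7 and 30.1 CPM in positive cells, and lower still in the bulge gate, where Lef1 had no UMI and Gli1 was at 10.8 and 8.37 CPM. Lgr6, a relative of Lgr5, was at 46.7 and 30.7 CPM in positive and 3.21 and 10.9 CPM in Abi3bp-only cells, and the ligand Wnt10b was at 17.4 and 20.5 CPM in positive and 2.41 and 4.61 CPM in Abi3bp-only cells. Dkk4, a secreted Wnt inhibitor, had no UMI in any of these groups, and the ligand Shh was at 2.81 and 0 CPM in positive cells. The host transcript of miR-205, 4631405K08Rik, was at 112 and 99.6 CPM in positive cells, a log2 ratio of -0.17 (-0.47 to 0.13). The libraries do not measure the mature miRNA, and this transcript does not check the transgene.

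**Figure D2:**
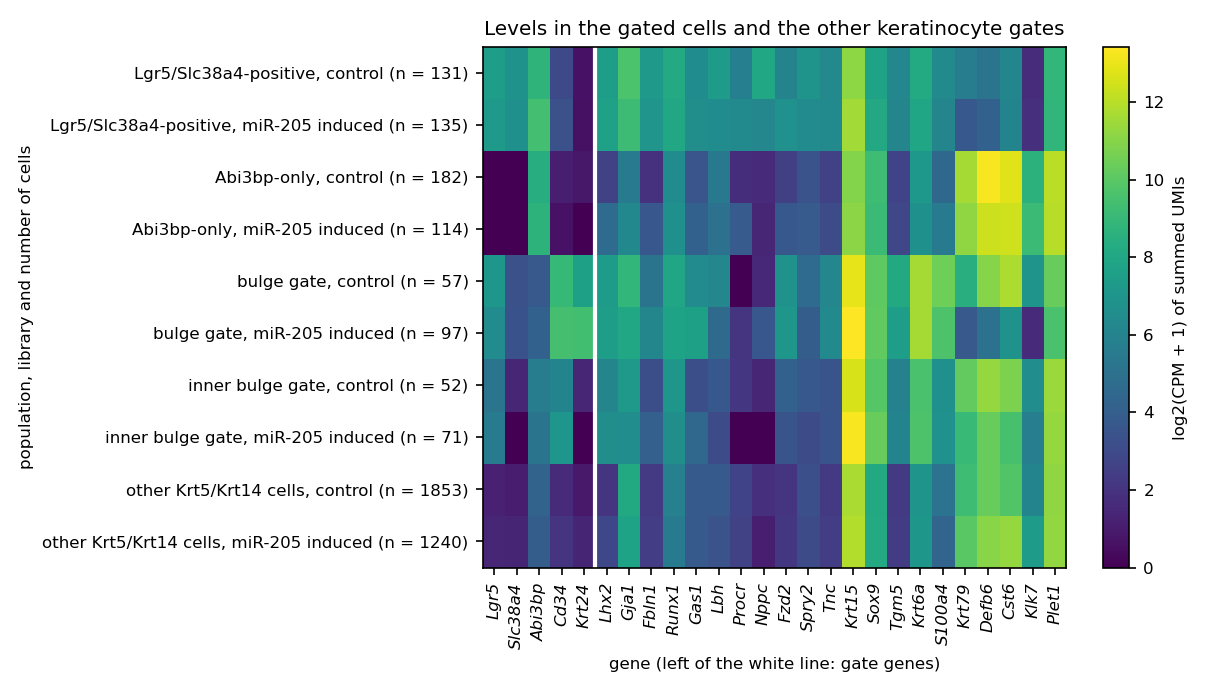
Colour gives log2(CPM + 1) of summed UMIs for genes (x axis) in each gate and library (y axis, with the number of cells). Genes left of the white line took part in the selection; Lhx2, Gja1 and Fbln1 stand out in positive and not in Abi3bp-only cells, and Krt79, Defb6 and Cst6 do the reverse.

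Positive cells were higher than Abi3bp-only cells in genes known from follicle progenitors and lower in genes known from the upper follicle and cornifying layers. Since Lgr5 and Slc38a4 divided the cells, genes that go with them differ by construction, and these ratios are description. Of 3760 genes with at least 100 UMIs in each library, 164 (4.36%) were past 2-fold higher and 245 (6.52%) past 2-fold lower in positive cells in both libraries. For lists, each gene is taken at the ratio nearer 0 of the 2 libraries, or 0 where the signs differ, and all tested genes had a median of 0.00. Lhx2, a transcription factor of hair follicle stem cells, was at 176 and 203 CPM in positive and 5.21 and 24.8 CPM in Abi3bp-only cells, log2 ratios of 5.03 and 3.02 in the control and induced library. Gja1, which encodes the gap junction protein connexin 43, was at 798 and 582 CPM in positive and 45.7 and 74.9 CPM in Abi3bp-only cells. Fbln1, a matrix protein also made by fibroblasts, was at 149.7 and 128 CPM in positive and 2.81 and 11.5 CPM in Abi3bp-only cells, and 81.7% and 74.1% of positive cells had a UMI. The other genes among the 12 highest were Crip1, Sparc, Map1b, Rhoc, Cpe, Lmo1, Dmd, Sntb2 and Zfp36l2. Crip1, a small LIM protein, had log2 ratios of 4.09 and 2.71, and Dmd, dystrophin, of 2.46 and 2.01. Of the hair germ list outside the selection, 6 of 7 members with enough UMIs were past 2-fold higher (Lbh, Procr, Runx1, Gas1, Fgfr1 and Bmp2) and the list median was 1.68. The list holds 18 genes, and a gene low in one kind of cell passed the minimum mainly where it was high in the other. Runx1, a transcription factor needed for timely hair growth, was at 290.4 and 257 CPM in positive and 90.2 and 105 CPM in Abi3bp-only cells. Gas1, a Hedgehog co-receptor, was at 91.2 and 99 CPM in positive and 10.4 and 17.3 CPM in Abi3bp-only cells. Bmp2, a growth factor ligand, was at 81.6 and 166 CPM in positive and 14 and 31.1 CPM in Abi3bp-only cells. The FGF receptors Fgfr1 and Fgfr2 were both past 2-fold higher in positive cells, as were 3 of 7 BMP response genes, the Id genes Id1, Id2 and Id4. Among integrins and basement membrane genes 5 of 9 were past 2-fold higher in positive cells, which were Itga2, Itga3, Lama3, Npnt and Tnc. Of 15 follicle transcription factors 4 (Lhx2, Tcf7l2, Nfib and Runx1) were past 2-fold higher and 4 (Sox9, Foxc1, Klf5 and Grhl3) lower. Sox9, a stem cell factor of the follicle, was at 223 and 273 CPM in positive and 614 and 569 CPM in Abi3bp-only cells.

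The genes of the sum above were at high levels in Abi3bp-only cells, with Defb6 at 10186 and 5358 CPM against 34.9 and 17.2 CPM in positive cells, Cst6 at 6899 and 5545 against 69.2 and 65.1 CPM and Krt79 at 3089 and 2299.8 against 49 and 11.8 CPM. By the ratio nearer 0 of the 2 libraries, the genes farthest below 0 in positive cells were Defb6, Klk7, Defb1 and Cst6, and Krt79 came after Aadac and Alox12e. Klk7, a protease that sheds cornified cells, Defb1, Alox12e, a lipoxygenase, Sprr1a, a cornified envelope protein, and Cldn4, a tight junction protein, were past 2-fold higher in Abi3bp-only cells as well. Of the upper follicle marker list 5 of 8 genes (Krt79, Defb6, Cst6, Fst and Plet1) were past 2-fold lower in positive cells. The list median was -2.28, and Krt79, Defb6 and Cst6 are the genes of the sum above. Of all genes 6.52% were past 2-fold lower, which stands beside every list count in this paragraph. A gene of these lists could reach the minimum mainly through Abi3bp-only cells where it is high. Of the suprabasal list 5 of 6 were lower (Krt10, Krtdap, Sbsn, Lgals7 and Calml3). The class I antigen presentation genes B2m, H2-K1 and H2-D1 were past 2-fold lower in positive cells too, with 4 of 5 interferon response genes lower. Abi3bp-only cells were themselves of more than 1 kind. Those with 20 or more UMIs of Krt79, Defb6 and Cst6 (93 control and 58 induced cells) had Krt79 at 5671 and 4189 CPM and no Lhx2 UMI. The rest (89 and 56 cells) had Krt79 at 41.1 and 48 CPM and Lhx2 at 11.4 and 54.3 CPM. Lhx2 was detected in 6 of these control and 11 of these induced cells, against 98 of 131 and 112 of 135 positive cells. Gja1 was detected in 19 and 22 cells of the rest, against 127 and 121 positive cells. Plet1, of the upper follicle list, was at 1975 and 2084 CPM in the rest, against 473 and 452 CPM in positive cells. Ly6d was at 1765 and 2073 against 252 and 121 CPM. Gata6 was detected in 38.2% and 35.7% of the rest and in 0.763% and 1.48% of positive cells. Krt15 was close, at 2112 and 2795 against 2226 and 3050 CPM. The rest may include cells with Lgr5 or Slc38a4 below detection, and it was given no cell type name.

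Set beside the bulge gate, the positive cells were lower in several bulge and inner bulge genes, and few genes were higher. Since Cd34 and Krt24 set the gates apart, genes that go with them differ by construction, and these ratios are description. Of 4307 genes with enough UMIs for all selected cells, 183 (4.25%) were past 2-fold higher and 138 (3.2%) lower than the bulge gate in both libraries. Genes of the Abi3bp-only cells, such as Alox12e and Aadac, were among the highest. For positive cells the numbers were 47 of 2582 (1.82%) and 101 (3.91%). The split moved with the scaling. Ribosomal protein UMIs were 28.7% and 31.2% of the total in positive cells and 20.4% and 20.4% in the bulge gate. With totals that leave out mitochondrial and ribosomal protein genes, the log2 ratios of positive cells over the bulge gate were higher by 0.18 in the control and 0.23 in the induced library, and 85 genes were higher and 66 lower. The same totals gave 226 higher and 101 lower for all selected cells and 214 and 200 for positive over Abi3bp-only cells, while median-of-ratios scaling gave 152 and 172 for all selected cells.

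Among genes with at least 200 UMIs, Epgn, a ligand of the EGF receptor, ranked highest over the bulge gate, at 1166 and 491 CPM in positive cells and 66.6 and 26.1 CPM in the bulge gate, although it was also 462 and 281 CPM in other Krt5 and Krt14 cells. Angptl4, a secreted lipase inhibitor, was at 111 and 195 against 3.6 and 13.6 CPM, and Cpe, a carboxypeptidase, at 163 and 160.4 against 21.6 and 15.7 CPM. Icam1, an adhesion receptor for leukocytes, was at 607 and 921 against 151 and 195 CPM, and the chemokine Cxcl1 at 195 and 223 against 41.4 and 24.1 CPM. Krt16, a keratin of stressed and follicle keratinocytes, and Hilpda, a lipid droplet protein, belonged to the highest as well. Each was higher in positive cells in both libraries. Spry2, an inhibitor of FGF signalling that FGF itself induces, had log2 ratios of 2.21 and 2.55 and Lbh of 1.12 and 1.92. Of 18 genes on the hair germ list 6 had enough UMIs. Of these 1 (Lbh) was past 2-fold higher, against 1.82% of all genes, with a list median of 0.25. Per cell the median sum of the list was 10.5 and 10.8 UMIs per 10000 in positive cells. In the bulge gate it was 8.2 and 7.48. Of the bulge genes outside the selection 5 of 10 were past 2-fold lower (Krt15, Col17a1, Sfrp1, Dkk3 and Tgm5), against 3.91% of all genes. The list median was -0.90. The list holds 16 genes, and a gene could reach the minimum mainly through the bulge gate where it is high. Krt15, a bulge keratin, was at 2226 and 3049.9 CPM in positive cells and 7766 and 10957 CPM in the bulge gate, and Sox9 was at 223 and 273 against 1098 and 1111 CPM. Of 7 inner bulge genes 4 were past 2-fold lower (Krt6a, Dkk3, S100a4 and S100a6). Krt6a was at 297 and 241 against 3176 and 3079 CPM, and S100a4, a calcium-binding protein, at 83.9 and 67.3 against 1431 and 805 CPM. The suprabasal genes Sbsn, Dmkn and Calml3 were also lower, 3 of 5 tested, as were the immediate early genes Atf3, Klf4 and Dusp1, 3 of 21 tested. Of 12 Wnt inhibitors 3 had enough UMIs (Dkk3, Sfrp1 and Sostdc1), a minimum that a gene can pass mainly through the gate where it is high. Dkk3 and Sfrp1 are on the bulge list too, with Sfrp1 at 31.5 and 60.3 against 252 and 393 CPM and Dkk3 at 37.7 and 45.7 against 75.6 and 157 CPM. Lhx2 was close in both gates, at 176 and 203 against 173 and 176 CPM (log2 ratios of 0.02 and 0.21), and so was Runx1, at 290.4 and 257 against 238 and 222 CPM (0.29 and 0.21).

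**Figure D3:**
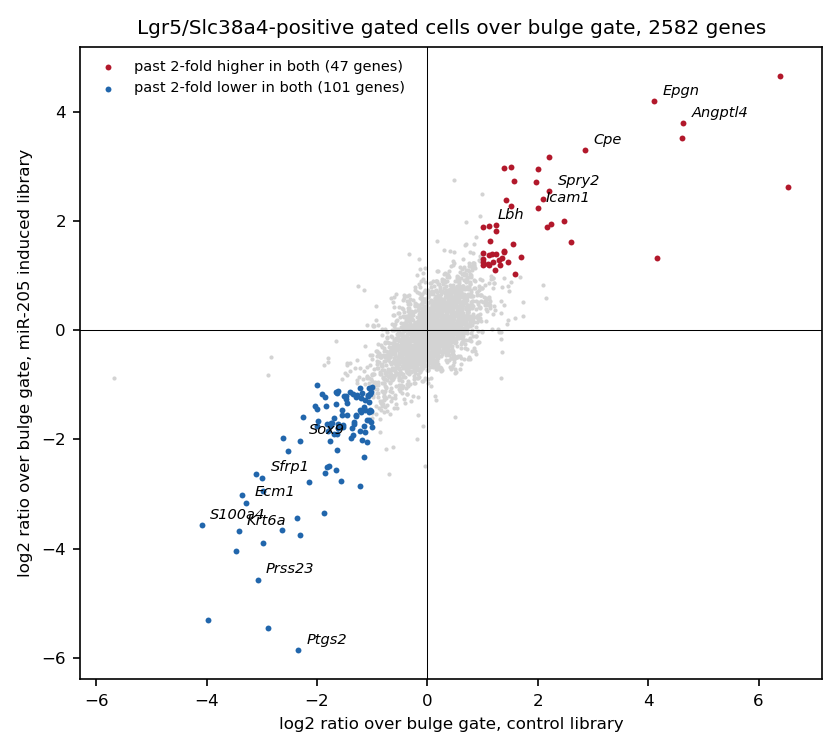
Each point is 1 of 2582 genes, with the log2 ratio of positive cells over the bulge gate in the control library (x) and in the induced library (y). The 47 genes past 2-fold higher in both are red and the 101 past 2-fold lower are blue; Epgn, Angptl4 and Cpe are labelled among the red genes and S100a4, Krt6a and Ecm1 among the blue.

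Markers of dermal, muscle, pigment, vessel and immune cells were low in positive cells, apart from Fbln1 and Sparc and from immune transcripts in single cells, while Abi3bp-only cells carried the upper follicle and suprabasal markers given above. The upper follicle list summed to 5114 and 4366 CPM in positive and 31987 and 23554 CPM in Abi3bp-only cells, and the suprabasal list to 3983 and 2648 CPM and 11451 and 10497 CPM in the same order. In Abi3bp-only cells the dermal fibroblast list summed to 34.5 and 34.6 CPM. The 10 dermal fibroblast markers summed to 314 and 295 CPM in positive cells, against 70251 and 55601 CPM in dermal cells, and Fbln1 at 149.7 and 128 and Sparc at 130.0 and 137 CPM made up most of them, with Mfap5 at 0 in both libraries and Pdgfra and Dpt at 0 in the control. Smooth muscle markers summed to 79.4 and 152 CPM with Myh11 and Des at 0, and dermal papilla markers to 94 and 29.1 CPM, of which Wif1 was the largest at 52.9 and 18.8 CPM. Melanocyte markers summed to 13.5 and 23.1 CPM and endothelial markers to 20.3 and 30.7 CPM, with the defining genes Tyr, Tyrp1, Sox10, Kdr and Tie1 at 0 in both libraries. The immune cell list summed to 868 CPM in positive control cells and 29.6 CPM in positive induced cells. In the control 1482 of 1524 UMIs of Cd74, H2-Aa, H2-Ab1 and Cd207, genes of antigen-presenting cells of which Cd207 marks Langerhans cells, came from 1 cell. In Abi3bp-only cells the sums were 61.7 and 1588 CPM, and 2 induced cells held 1199 and 1016 of 2697 such UMIs. In positive cells the ratios of these genes between libraries therefore rest mostly on 1 cell. In Abi3bp-only cells 8 induced cells and 1 control cell held 20 or more such UMIs, so the ratios there rest on few cells.

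In the comparison of the induced with the control library, a gene needed 100 UMIs in all and counted as past the limit at 1.5-fold, whatever its interval. Over all selected cells 423 of 6170 genes (6.86%) were higher and 274 (4.44%) lower in the induced library. In positive cells they were 310 (8.07%) and 349 (9.09%) of 3841, and in Abi3bp-only cells 144 (3.38%) and 119 (2.8%) of 4257. Under median-of-ratios scaling the split in positive cells was 378 higher and 272 lower, and totals without mitochondrial and ribosomal protein genes gave 374 and 279. The induced library held a larger share of positive cells, so each kind of cell is given apart.

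Of 40 gene lists examined, the immediate early and actin lists are described first, an order chosen after their values were seen; several marker lists of other cells, with at most 6 genes tested, had medians farther from 0. Immediate early genes, which cells switch on within minutes of a stimulus, tissue dissociation included, were higher in positive cells of the induced library. Of 22 genes on the list 13 were past 1.5-fold higher and 0 lower, against 8.07% of all genes, with a median log2 ratio of 0.88 where all genes had -0.06. In Abi3bp-only cells 0 of 22 were higher and 0 lower, with a median of 0.04. Of all genes in those cells 3.38% were higher and 2.8% lower, so the counts of 0 are close to these shares. The difference between the 2 kinds of cell was not tested. Fos, a subunit of the AP-1 factor, was at 811 CPM in control and 3098 CPM in induced positive cells, a log2 ratio of 1.93 (1.85 to 2.02), and at 445 and 607 CPM in Abi3bp-only cells, a log2 ratio of 0.45 (0.32 to 0.57). Egr1 was at 274 and 866 CPM in positive cells (log2 ratio 1.66, 1.52 to 1.81) and 259.8 and 278 CPM in Abi3bp-only cells, and Atf3, a stress factor, was at 496 and 1509.6 CPM in positive (log2 ratio 1.61, 1.5 to 1.72) and 545 and 524 CPM in Abi3bp-only cells. Socs3, a brake on cytokine signalling, was at 99.1 and 311 CPM in positive cells (log2 ratio 1.65, 1.40 to 1.90).

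More induced than control positive cells had high immediate early counts, while the lower quartiles were close. With 200 immediate early UMIs per 10000 as a limit, chosen after the values were seen, 12 of 131 control positive cells were above it (9.16%, 4.82 to 15.5) and 45 of 135 induced positive cells (33.3%, 25.5 to 42). The lower quartile of positive cells was 68.5 and 71 per 10000 and the upper quartile 121 and 279. Abi3bp-only cells above the limit were 15 of 182 and 14 of 114, and the bulge gate had 24 of 57 and 60 of 97. Of the Fos UMIs of positive cells 61.4% and 23.7% lay in 5 cells of each library, without which its log2 ratio was 2.93. Median depth was 10544 UMIs in control cells above the limit and 12677 in the others, and 11981 and 12989 in the induced library. The part that dissociation had in these genes was not tested.

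Most genes of the actin cytoskeleton were lower in positive cells of the induced library, by less than the 1.5-fold limit. The study names Actb, Actn1, Actn4, Ctnna1, Rock2 and Piezo1 as targets of miR-205, and 0 of 6 were past 1.5-fold, against 9.09% of all genes, with a median log2 ratio of -0.40. Actb, which encodes beta-actin, was at 7558 (7431 to 7687) CPM in the control and 5609.6 (5502 to 5718) CPM in the induced library, a log2 ratio of -0.43 (-0.47 to -0.39). Actn1 and Actn4, the actin cross-linkers alpha-actinin 1 and 4, had log2 ratios of -0.39 (-0.57 to -0.22) and -0.45 (-0.62 to -0.28), and Rock2, a kinase that drives contraction, -0.32 (-0.50 to -0.14). Piezo1, a channel opened by stretch, was at 45 and 33.9 CPM (log2 ratio -0.41, -0.91 to 0.09), and Ctnna1, alpha-catenin, at 252 and 241 CPM (log2 ratio -0.06, -0.26 to 0.13), with intervals that include 0. In Abi3bp-only cells Actb was at 5838 and 6239.6 CPM (log2 ratio 0.10, 0.06 to 0.13), and Actn4 had a log2 ratio of 0.02 (-0.14 to 0.18). Of 23 genes of filament assembly and bundling 4 had a ratio above 0 in positive cells and only Tpm1, a tropomyosin, was past 1.5-fold lower, with a median of -0.32 there and -0.09 in Abi3bp-only cells. Lower values were not particular to positive cells. In the bulge gate Actb had a log2 ratio of -0.69 (-0.75 to -0.64), and in other Krt5 and Krt14 cells -0.29 (-0.30 to -0.28). The per-cell median of the summed assembly list was 62.5 and 41.8 UMIs per 10000 in positive cells, 58.2 and 46.9 in the bulge gate, 53.4 and 47.7 in other Krt5 and Krt14 cells and 49.1 and 46.5 in Abi3bp-only cells. Differences between these groups were not tested.

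The actin values were lower in cells with high immediate early counts, except in the induced cells of the bulge gate. Among induced positive cells, Actb was at 3066 CPM in the 45 cells above the immediate early limit and 6852 CPM in the 90 others. Among control positive cells it was 4302 CPM in 12 cells and 7822 CPM in 119. Actb in positive cells was therefore lower in the induced library on both sides of the limit. It was 7822 and 6852 CPM in cells below it and 4302 and 3066 CPM in cells above it. The summed assembly list had a per-cell median of 64.5 and 52.6 UMIs per 10000 in positive cells below the limit. Above it the median was 33.9 and 29.9. Actb was lower above the limit in Abi3bp-only cells too, at 4319 against 5946 CPM in the control and 4080.2 against 6524 CPM in the induced library, and in other Krt5 and Krt14 cells, at 4849 against 9217 and 4919 against 7566 CPM. The bulge gate had 6744 against 10660.4 CPM in the control, and its induced cells were the exception, with 5644 against 5663 CPM. The part of the one in the other was not tested.

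**Figure D4:**
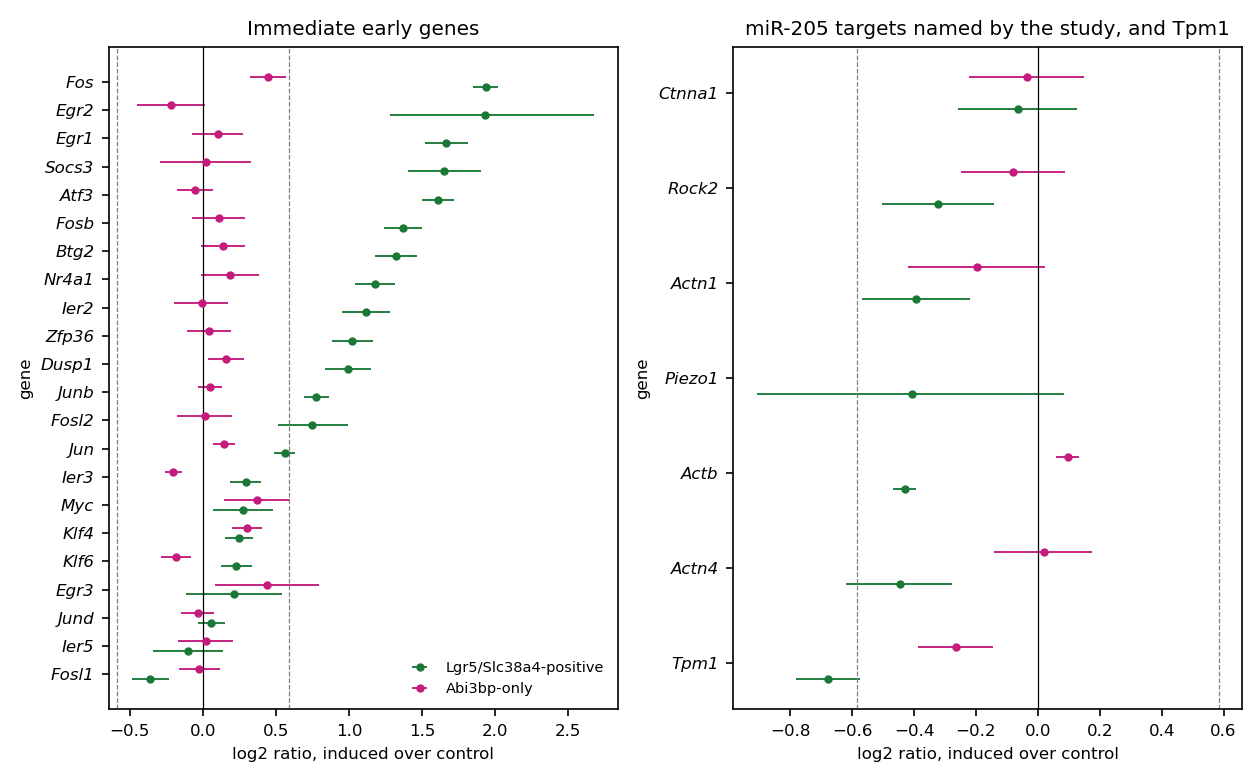
Log2 ratio of induced over control (x) with its 95% counting interval for immediate early genes (left) and for the 6 targets and Tpm1 (right), in Lgr5/Slc38a4-positive and Abi3bp-only cells; dashed lines are 1.5-fold. Most immediate early genes lie to the right in positive cells and near 0 in Abi3bp-only cells, and the targets lie left of 0 within the limit in positive cells.

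Hair germ genes went in both directions in positive cells, with 3 past 1.5-fold higher and 3 lower of 11. Of all genes tested in positive cells 8.07% were higher and 9.09% lower, which holds for every list count in this paragraph. Bmp2 was at 81.6 and 166 CPM (log2 ratio 1.02, 0.74 to 1.32) and Fgfr1, an FGF receptor, at 132 and 206 CPM (log2 ratio 0.64, 0.40 to 0.88), both higher in the induced library. Lbh was lower in the induced library, at 162 and 92.6 CPM (log2 ratio -0.81, -1.09 to -0.53), as were Lgr6 at 46.7 and 30.7 CPM (log2 ratio -0.60, -1.12 to -0.10) and Gli1 at 46.7 and 30.1 CPM (log2 ratio -0.63, -1.15 to -0.13). With cells chosen on at least 2 Lgr5 UMIs alone the Lbh ratio was -1.49. Procr had a log2 ratio of 0.64 (0.26 to 1.03) that turned to -0.24 without the 5 cells with most of its UMIs in each library. Nppc, which encodes C-type natriuretic peptide, was at 250.5 and 74.3 CPM in positive cells and 2.0 and 1.73 CPM in Abi3bp-only cells, and 68.8% and 68.1% of its UMIs in positive cells came from 5 cells. The BMP response genes Id1 and Id3 were higher in the induced library, at 328 and 544 CPM (log2 ratio 0.73, 0.58 to 0.88) and 452 and 1050.0 CPM (log2 ratio 1.22, 1.10 to 1.34). Of that list 7 of 7 members tested were above 0, with a median of 0.39 where all genes had -0.06. Of 5 Wnt inhibitors 3 (Sfrp1, Sostdc1 and Shisa2) were past 1.5-fold higher and Wif1 lower. Sostdc1, which also blocks BMPs, was at 40.0 and 111 CPM in positive cells (log2 ratio 1.47, 1.08 to 1.89) and 115 and 379 CPM in the bulge gate. Sfrp1 was higher at 31.5 and 60.3 CPM (log2 ratio 0.93, 0.46 to 1.42) and Wif1 lower at 52.9 and 18.8 CPM (log2 ratio -1.48, -2.09 to -0.92, and -2.32 without its 5 highest cells in each library). Integrin genes past 1.5-fold lower in the induced library included Itga2, at 149 and 88.3 CPM (log2 ratio -0.75, -1.04 to -0.46), and Itgb1, at 278 and 175 CPM (log2 ratio -0.67, -0.88 to -0.46). Itgb1 was at 221 and 215 CPM in Abi3bp-only cells. Thbs1, a matrix protein, was at 1796 and 821 CPM (log2 ratio -1.13, -1.22 to -1.04) in positive cells and 883 and 869.6 CPM in Abi3bp-only cells. Epgn was lower, at 1166 and 491 CPM (log2 ratio -1.25, -1.36 to -1.13), while it was 123 and 146 CPM in Abi3bp-only cells, and its ratio was -1.97 with at least 2 Lgr5 UMIs alone. Of the basal epidermis list 3 of 6 (Thbs1, Ly6d and Epgn) and of the suprabasal list 3 of 6 (Krtdap, Sbsn and Dmkn) were past 1.5-fold lower, with medians of -0.63 and -0.79.

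**Figure D5:**
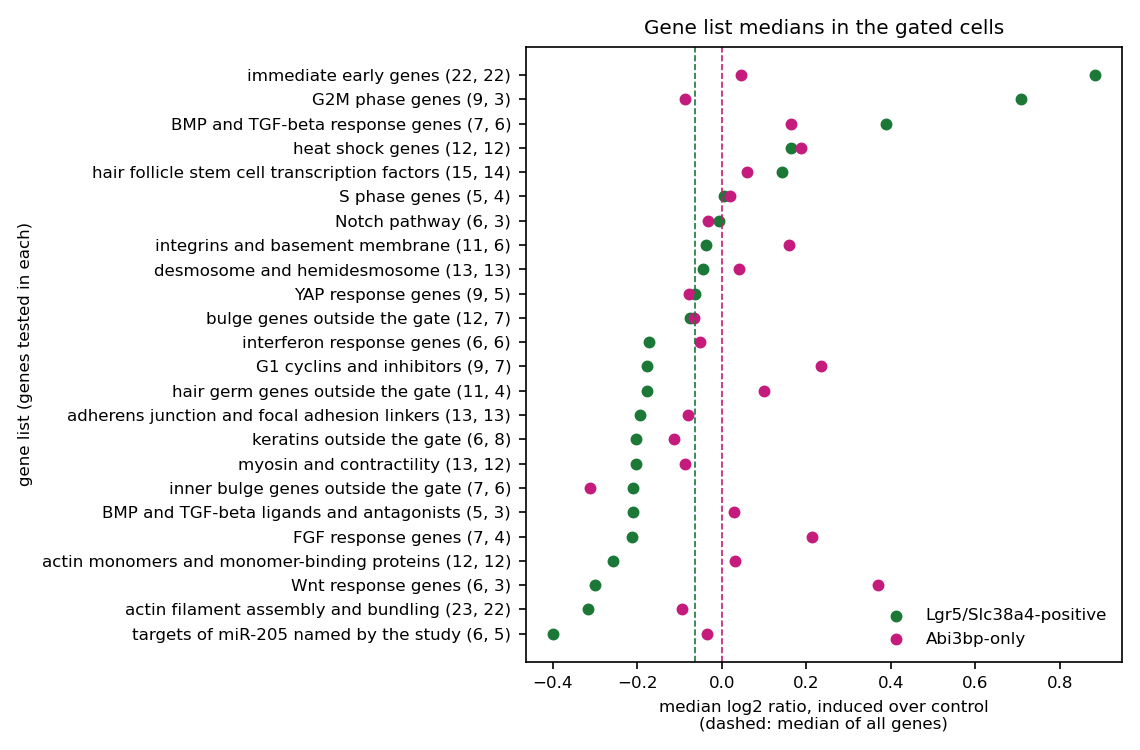
Median log2 ratio of induced over control (x) for 24 gene lists (y, with the genes tested in positive and in Abi3bp-only cells; marker lists of other cells and lists under 5 or 3 tested genes are left out); the dashed lines are the medians of all genes. In positive cells immediate early genes (0.88) have the highest median plotted and the miR-205 targets (-0.40) and actin assembly genes (-0.32) the lowest, and in Abi3bp-only cells these lists lie at 0.04, -0.03 and -0.09.

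Several genes with the largest ratios in positive cells also differed in the other groups. Gm8797, an annotated pseudogene whose counts are uncertain because reads can be shared with its parent gene, was at 28.7 and 611 CPM in positive cells (log2 ratio 4.40, 4.01 to 4.85), 15.6 and 387 CPM in Abi3bp-only cells, 18 and 989 CPM in the bulge gate and 43.3 and 939 CPM in dermal cells. Ifi27l2a, an interferon response gene, was at 9.01 and 103 CPM in positive cells and 5.21 and 328 CPM in Abi3bp-only cells. Txnip, a redox regulator, was at 46.7 and 185 CPM in positive (log2 ratio 1.98, 1.64 to 2.35) and 34.9 and 79.5 CPM in Abi3bp-only cells. The Txnip ratio was 2.89 with at least 2 Lgr5 UMIs alone. Myadm, a membrane protein of the MARVEL family, was at 172 and 45.7 CPM (log2 ratio -1.91, -2.28 to -1.56), 95.4 and 31.1 CPM in Abi3bp-only cells and 337 and 74.2 CPM in the bulge gate, but at 135 and 149 CPM in dermal cells. Among the lowest in positive cells, Areg, a ligand of the EGF receptor, Serpinb2, a protease inhibitor, Ccl2, a chemokine, and Plin2, a lipid droplet protein, drew 77.5%, 73.4%, 95.8% and 85.5% of their control UMIs from 5 cells, and the Ccl2 ratio of -2.67 (-3.17 to -2.23) was -0.45 without the highest-scoring doublets and turned to 0.33 without the 5 cells of each library. Gpha2, a glycoprotein hormone subunit, was spread more evenly, with 27.6%, at 163 and 41.4 CPM (log2 ratio -1.97, -2.36 to -1.61). In Abi3bp-only cells Hamp, the iron hormone hepcidin, was at 176 and 6.34 CPM, Ccl1 at 82.2 and 10.9 CPM, Eva1a, an autophagy regulator, at 79.4 and 13.3 CPM and Asprv1, a protease of the granular layer, at 25.7 and 179 CPM.

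Cell cycle transcripts were few, and of 9 G1 genes tested in positive cells 1 was past 1.5-fold higher and 2 lower, against 8.07% and 9.09% of all genes, with a median log2 ratio of -0.18. Ccnd1, cyclin D1, was lower in the induced library, at 128 and 60.8 CPM in positive cells (log2 ratio -1.07, -1.41 to -0.74), against 13.6 and 19.6 CPM in Abi3bp-only cells. Ccnd2 was lower too, at 94 and 56.5 CPM (log2 ratio -0.73, -1.10 to -0.37), and the cell cycle inhibitor Cdkn1b higher, at 37.7 and 60.8 CPM (log2 ratio 0.69, 0.24 to 1.15). Mki67, a protein of dividing cells, was at 31 and 38.7 CPM in positive cells (log2 ratio 0.32, -0.20 to 0.86) and 10.8 and 12.1 CPM in Abi3bp-only cells, and Top2a, the mitotic topoisomerase, was at 47.8 and 56.5 CPM in positive (log2 ratio 0.24, -0.19 to 0.67) and 41.7 and 55.9 CPM in Abi3bp-only cells. Without the 5 highest cells of each library these ratios were 2.19 for Mki67 and 2.14 for Top2a, from few UMIs, and the Top2a ratio was -0.48 without the highest-scoring doublets and -0.92 with at least 2 Lgr5 UMIs alone. Before thinning 10 of 131 control and 19 of 135 induced positive cells had an Mki67 UMI. Thinned to 5000 UMIs per cell, the expected share was 4.84% in control and 8.87% in induced positive cells, and single random thinnings gave 1.55 to 6.98% and 5.19 to 11.9% over 100 draws. A draw with 1 fixed seed gave 6 of 129 (4.65%, 95% interval 1.73 to 9.85) and 14 of 135 (10.4%, 95% interval 5.79 to 16.8), and these intervals overlapped. The expected Top2a shares were 4.44% and 5.57% in positive cells and 6.41% and 8.92% in Abi3bp-only cells. Dermal cells had expected Mki67 shares of 2.29% and 0.569%. Mki67 is not a keratinocyte gene, so these shares are no measure of free RNA. In the bulge gate 0 of 57 and 0 of 97 cells had an Mki67 UMI. Of them 52 and 93 cells had at least 5000 UMIs, and 3 counts among these give limits of 5.77% and 3.23%. Of the G2M list 5 of 9 genes were past 1.5-fold higher in induced positive cells, with a median of 0.71, but these UMIs lay in few cells, 98% and 74.7% of those of Ube2c and 94.9% and 55.5% of those of Cenpf in 5 cells. With cells chosen on at least 2 Lgr5 UMIs alone, the G2M median turned to -0.25.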

How the data were processed

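The authors deposited raw UMI counts per gene and barcode for each library; Cell Ranger and build mm10 are named in the submitters' processing notes, and the matrix headers give software version 3.0.1. Cells with 201 to 4999 detected genes and under 10% mitochondrial UMIs were kept, after the study's filter. The members and gene lists were chosen with earlier results of these data known, and the division into Lgr5/Slc38a4-positive and Abi3bp-only cells, the limits of 20 and 200 and the alternatives marked as added came after the data were seen. Counts were summed per group of cells and library and scaled to CPM; ratios used a pseudocount of 0.5 UMIs, with exact conditional binomial intervals, exact Poisson intervals on levels and Clopper-Pearson intervals on shares. Named genes were selection genes and markers, the extremes of 40 gene lists and of all genes with at least 200 UMIs (the rule was extended to both kinds of cell), Mki67, Top2a and the 6 targets. A share of 0 is limited by 3 counts. Doublets were kept in the main values: Scrublet in scanpy 1.11.5 marked 4 and 5 barcodes, which has not worked, and leaving out the 165 and 145 highest-scoring barcodes was an alternative (10 and 6 selected cells). For thinned shares the exact expected share is given beside a random draw, since the share moved from draw to draw. Results on some genes are not reported here. The procedure was tested on simulated counts. Python 3.11.15, numpy 2.4.6 and scipy 1.17.1 were used.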

Additional observations from a re-analysis of the deposited data

Results flagged for a closer look

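Of 3331 genes with enough UMIs in both kinds of cell, 11 were past 1.5-fold, with intervals that exclude 0, in opposite directions (induced over control, log2) in Lgr5/Slc38a4-positive and in Abi3bp-only cells. With 1 library per group the differences were not tested. Of them, 5 are genes of antigen-presenting cells whose UMIs came mostly from few cells. Cd74 was -4.24 in positive and 4.82 in Abi3bp-only cells, and H2-Aa -5.91 in positive and 4.45 in Abi3bp-only cells. H2-Ab1 was -5.13 in positive and 4.46 in Abi3bp-only cells, and H2-Eb1 -5.08 in positive and 4.37 in Abi3bp-only cells. Cd207 was -7.16 in positive and 5.07 in Abi3bp-only cells. The highest positive control cell alone held 625 of 640 Cd74 UMIs. Ccl20, a chemokine, was 1.37 in positive and -1.09 in Abi3bp-only cells. Of its UMIs 1 induced positive cell held 41 of 79, where all control positive cells had 29. In Abi3bp-only cells 1 induced cell held 198 of 293. Akr1c18, a steroid-reducing enzyme, was -3.65 in positive and 1.08 in Abi3bp-only cells, with 89 of 174 control positive UMIs in 1 cell. Rgs2, a G protein regulator, was -0.79 in positive and 0.87 in Abi3bp-only cells, and Pclaf, a DNA replication factor, -0.69 in positive and 0.63 in Abi3bp-only cells. Single cells held 53 of 190 control positive and 29 of 107 induced Abi3bp-only UMIs of Rgs2, and 20 of 79 and 30 of 67 of those of Pclaf. Plpp2, a lipid phosphatase, was 0.96 in positive and -0.66 in Abi3bp-only cells, and Arhgdib -0.62 in positive and 0.75 in Abi3bp-only cells; for these 2 no cell held more than 14 UMIs.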

How the results depend on the processing

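No paired analysis was possible because each group held 1 library, and no replicate could be left out for the same reason. Of 4792 recomputed gene ratios of induced over control 189 changed sign, 4 of them for genes past 1.5-fold with an interval that excluded 0, and 503 without such a turn left their counting interval, Txnip, Lbh and Epgn in positive cells among them as given above. Of 1216 list medians 106 changed sign, 3 of them where the range of the median excluded 0. The immediate early median in positive cells ran from 0.85 to 1.00, and the actin assembly median from -0.45 to -0.25. Shares and list medians over all selected cells that left their range, the list medians that turned, counts that moved by over 1.5 times and the 4 gene ratios follow; a stricter selection or a higher minimum holds fewer cells or genes by construction, and other causes were not tested. With under 5% mitochondrial UMIs, shares were selected among kept control 7.09%, positive among selected control 24.8%, selected among kept induced 5.63%, positive among selected induced 33.7% and Mki67 Abi3bp-only induced 0%. Genes past 1.5-fold, induced over control, were all selected cells higher 198, positive higher 114 and positive lower 176. List medians on the log2 scale were Wnt receptors and membrane regulators in all selected 0.78, actin monomers and monomer-binding proteins in all selected -0.051, YAP response genes in all selected -0.49, sebaceous gland markers in all selected -0.40, immune cell markers in all selected 3.70 and hair follicle stem cell transcription factors in positive cells -0.11. Then genes past 2-fold in both libraries were all selected over bulge higher 90, all selected over bulge lower 83, positive over bulge higher 10, positive over bulge lower 30 and positive over Abi3bp-only higher 82. Without the highest-scoring doublets, log2 list medians were immune cell markers in all selected -1.83. With selection sums scaled to 10000 UMIs per cell, shares were selected among kept control 5.82%, positive among selected control 54.1%, selected among kept induced 5.4%, positive among selected induced 67.3%, Mki67 Abi3bp-only control 1.02% and Mki67 Abi3bp-only induced 0%. List medians on the log2 scale were actin filament assembly and bundling in all selected -0.26, targets of miR-205 named by the study in all selected -0.24, suprabasal epidermis markers in all selected -0.92 and immune cell markers in all selected -0.34. Past 2-fold in both libraries genes were all selected over bulge higher 87, positive over Abi3bp-only higher 95 and positive over Abi3bp-only lower 138. With at least 5 UMIs of Lgr5, Slc38a4 and Abi3bp, shares were selected among kept control 4.32%, positive among selected control 60.6%, selected among kept induced 4.66% and positive among selected induced 69.8%. List medians on the log2 scale were sebaceous gland markers in all selected -1.19 and immune cell markers in all selected -0.50. Then genes past 2-fold in both libraries were all selected over bulge higher 102, positive over Abi3bp-only higher 101 and positive over Abi3bp-only lower 156. With at least 2 Lgr5 UMIs in place of the sum, shares were selected among kept control 1.7%, positive among selected control 100%, selected among kept induced 2.01% and positive among selected induced 100%. Genes past 1.5-fold, induced over control, were all selected cells higher 176 and positive higher 176. List medians on the log2 scale were Wnt inhibitors in all selected 0.89, G2M phase genes in all selected -0.25, actin monomers and monomer-binding proteins in all selected -0.36, actin filament assembly and bundling in all selected -0.45, myosin and contractility in all selected -0.34, adherens junction and focal adhesion linkers in all selected -0.37, integrins and basement membrane in all selected -0.58, targets of miR-205 named by the study in all selected -0.58, YAP response genes in all selected -0.29, immediate early genes in all selected 1.00 and G2M phase genes in positive cells -0.25. Past 2-fold in both libraries genes were all selected over bulge higher 25, all selected over bulge lower 84 and positive over bulge higher 25. With totals without mitochondrial and ribosomal genes, log2 list medians were actin monomers and monomer-binding proteins in all selected -0.090. Then genes past 2-fold in both libraries were positive over bulge higher 85 and positive over bulge lower 66. With the mean of CPM over cells, log2 list medians were Wnt inhibitors in all selected 0.83 and sebaceous gland markers in all selected -0.39. With a minimum of 20 UMIs, genes past 1.5-fold, induced over control were all selected cells higher 1434, all selected cells lower 654, positive higher 1333, positive lower 1043, Abi3bp-only higher 944 and Abi3bp-only lower 481. List medians on the log2 scale were Wnt ligands in all selected 0.40, FGF ligands and receptors in all selected 0.53, sebaceous gland markers in all selected -0.74 and immune cell markers in all selected 1.06. Past 2-fold in both libraries genes were all selected over bulge higher 483, all selected over bulge lower 325, positive over bulge higher 260, positive over bulge lower 242, positive over Abi3bp-only higher 627 and positive over Abi3bp-only lower 518. With a minimum of 500 UMIs, genes past 1.5-fold, induced over control were all selected cells higher 66, all selected cells lower 66, positive higher 49, positive lower 60, Abi3bp-only higher 22 and Abi3bp-only lower 15. Then genes past 2-fold in both libraries were all selected over bulge higher 37, all selected over bulge lower 54, positive over bulge higher 7, positive over bulge lower 33, positive over Abi3bp-only higher 37 and positive over Abi3bp-only lower 70. With a bulge gate lacking the upper bulge limit (added), genes past 2-fold in both libraries were all selected over bulge lower 280, positive over bulge higher 80 and positive over bulge lower 236. With the division by Lgr5 alone (added), shares were positive among selected control 31.9% and positive among selected induced 45%. Gene ratios on the log2 scale were Procr in positive cells -0.16. Past 2-fold in both libraries genes were positive over Abi3bp-only higher 98. With thinning to 2500 UMIs, shares were Mki67 positive induced 3.7% and Top2a Abi3bp-only induced 5.26%. These were single draws, and fewer UMIs lower such shares by construction. Expected shares at 2500 UMIs were 5.52% for that Mki67 share (100 draws 1.48 to 8.89%) and 5.92% for that Top2a share (2.63 to 9.65%). Without the 5 cells with most UMIs of a gene (added), log2 ratios were Ccl2 in positive cells 0.33, Cd74 in positive cells 0.97 and Procr in positive cells -0.24. Depth limits single cells, since Lgr5 and Slc38a4 at 1 to 3 UMIs per cell leave cells without a UMI that may carry the transcript.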
